A study of Mus musculus with 14 samples.

Results

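The Hox cluster genes were followed across mouse embryonic fibroblast (MEF) pools that differ in the p65 subunit of NF-κB they carry. The members were genes on the array named Hoxa, Hoxb, Hoxc or Hoxd with a number, read by any probe that is not a control, and 37 such genes are described here, on 48 of 41174 probes. Hoxc11 was not analysed here. A gene with several probes was read at the probe with the highest mean signal.

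Hox genes encode homeodomain transcription factors that lie in 4 clusters, in which the order of the genes matches the order of the body regions where they are used in the embryo. Low-numbered genes act in the hindbrain and neck, and high-numbered genes act in the lumbar and tail regions and in the limbs. Fibroblasts are known to keep such a pattern in culture, so the set of Hox genes in use can serve as a record of where the cells came from. Genes of the same number in different clusters are called paralogs. The comparisons ask which Hox genes are expressed in these fibroblasts, whether separately selected pools share one set, and whether the levels differ with the p65 form or with the cytokine TNFα.

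All cells were p65(-/-) MEFs, infected with lentivirus and kept as selected pools of cells rather than single clones, and all were starved overnight. Each of 5 groups is named after what the pool received. The wild type 3 h group (n = 3) carried wild type p65, the KTR 3 h group (n = 3) carried p65 with 3 lysines changed to arginine (K310/314/315R), the K314/315R 3 h group (n = 2) carried p65 with the last 2 of these changed, and the pTV 3 h group (n = 3) carried the empty vector. These 4 groups received 30 ng/ml TNFα for 3 h, and the wild type 0 h group (n = 3) was left untreated. No separately infected pool of the same construct was measured, so a difference between 2 pools cannot be told apart from a difference between 2 selections of cells. The 2 K314/315R arrays lay on a slide of their own, and for them slide and pool cannot be told apart.

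The measurement is a level, the log2 signal of a probe after subtracting the array's own 75th percentile, which therefore lies at 0. A gene is called measured in a group when none of that group's arrays had its probe down at the background, and a gene measured in at least 1 group was tested. The 75th percentile of the processed signal lay between 967 and 1442 units on the 14 arrays, 49.9% to 57.7% of spots were well above background, and 1 to 326 spots an array were set aside as outliers, most of them on KTR replicates 2 and 3. Of 14 fibroblast markers, 13 were above background on all 14 arrays, with collagens and Vim among them, and Lum on none, and their summed linear level was 1110 to 1400 in the treated groups and 1350 to 1540 without TNFα. Markers of other cell types were above background on no array for 3 of 6 epithelial genes (with Cdh1), 4 of 5 endothelial genes (with Pecam1), 3 of 6 leukocyte genes (with Ptprc), 2 of 4 neural genes (with Gfap) and 3 of 4 skeletal muscle genes (with Myog). All 4 pluripotent genes were above background on at least 1 array. Other genes of these lists were above it, with Krt5 on 13 arrays, Krt14 on 12, Cldn3 on 11 and Myod1 on 10, and Sox2, Tubb3 and Cd3e on all 14. Rela, the gene for p65, was above background on every array of all 5 groups at both of its probes. The position of these probes relative to the deleted part of Rela is not known here, so they do not check the labels.

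The measured Hox genes lay in the low and middle numbers of the Hoxa and Hoxb clusters and at the start of Hoxc, and no Hoxd gene was measured in any group. Of the 37 members 13 were tested, and 9 of these were above background on all 14 arrays. They were Hoxa3, Hoxa4, Hoxa5, Hoxa7, Hoxa9, Hoxb2, Hoxb4, Hoxb6 and Hoxc4. The other tested genes were Hoxa2, Hoxb3, Hoxb7 and Hoxc5. By cluster, 6 of 10 Hoxa genes, 5 of 10 Hoxb genes, 2 of 8 Hoxc genes and 0 of 9 Hoxd genes were tested. By number, 9 of 14 genes of paralog groups 1 to 5 were tested, against 4 of 12 in groups 6 to 9 and 0 of 11 in groups 10 to 13.

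Another 19 of the 37 were above background on no array at the probe used here, and for Hoxd13 a second, dimmer probe was above it on 1 KTR array. These were Hoxa10, Hoxa11, Hoxa13, Hoxb1, Hoxb5, Hoxb8, Hoxb13, Hoxc6, Hoxc8, Hoxc9, Hoxc10, Hoxc12, Hoxc13, Hoxd1, Hoxd3, Hoxd8, Hoxd9, Hoxd10 and Hoxd13. The remaining 5 genes were above background on a few arrays. Hoxa6 was above on 4 arrays, 1 each of the wild type 3 h, K314/315R, pTV and wild type 0 h groups. Hoxb9 was above on 1 wild type 3 h and 1 K314/315R array, Hoxd4 on 2 KTR arrays, Hoxd11 on 1 KTR array and Hoxd12 on 1 pTV array. A probe that is not above background gives a bound and not a zero, so low expression of these genes cannot be told apart from none.

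**Figure D1:**
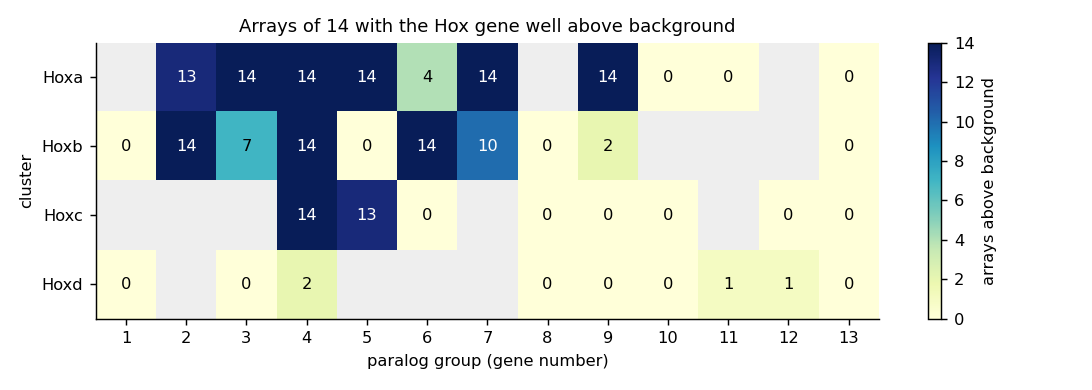
Number of the 14 arrays on which each Hox gene was well above background, by cluster (rows) and paralog group (columns); grey cells hold no gene analysed here. High counts fill groups 2 to 9 of Hoxa (apart from Hoxa6 at 4) and parts of Hoxb, Hoxc4 and Hoxc5, while groups 10 to 13 and the Hoxd row hold counts of 0 to 2.

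The pools shared most of this set. The wild type 0 h group had 13 measured Hox genes, pTV 12, wild type 3 h 11, K314/315R 11 and KTR 10. These sizes also depend on the arrays, since KTR replicates 2 and 3 had the lowest shares of spots well above background (50.7% and 49.9%). Hoxa2 at -3.96 missed on KTR replicate 3, while Hoxb3 at -4.54 was above background on wild type 3 h replicate 2. The sets differed at 4 genes. Hoxb3 was measured in wild type 0 h alone, being above background on 2 of 3 wild type 3 h arrays, 2 of 3 pTV arrays and no KTR or K314/315R array. Hoxb7 was missing from the set of KTR and wild type 3 h, Hoxa2 from that of KTR at 1 array, and Hoxc5 from that of K314/315R at 1 array. Hoxd4 was in no set. In KTR it lay at -3.81, -3.74 and -4.74, where the last array was not above background. On all arrays of the other groups Hoxd4 lay between -7.31 and -6.60, not above background. Over the whole array, 19101 of 22179 tested probes were above background on all arrays.

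Some members have a promoter sequence in RefSeq (build GRCm38.p6), and the 250 bases before the start are shown for 3 of them. Hoxa2 and Hoxb4 are genes with a called difference, and Hoxd4 is the paralog of Hoxb4 that was above background on 2 arrays. Capitals mark matches, on either strand, to a Hox–Pbx motif (TGATNNAT), a TATA motif (TATAAA) or the κB consensus bound by NF-κB.

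Hoxa2, chr6:52164832-52165081, - strand: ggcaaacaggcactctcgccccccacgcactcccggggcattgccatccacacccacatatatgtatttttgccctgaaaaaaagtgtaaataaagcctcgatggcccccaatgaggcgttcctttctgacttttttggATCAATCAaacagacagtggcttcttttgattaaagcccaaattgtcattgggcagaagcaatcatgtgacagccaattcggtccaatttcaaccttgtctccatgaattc

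Hoxb4, chr11:96318017-96318266, + strand: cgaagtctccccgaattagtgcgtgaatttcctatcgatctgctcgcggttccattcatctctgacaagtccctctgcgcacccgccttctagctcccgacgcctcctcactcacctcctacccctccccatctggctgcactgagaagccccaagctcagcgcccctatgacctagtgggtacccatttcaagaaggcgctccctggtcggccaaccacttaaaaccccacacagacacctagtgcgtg

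Hoxd4, chr2:74721728-74721977, + strand: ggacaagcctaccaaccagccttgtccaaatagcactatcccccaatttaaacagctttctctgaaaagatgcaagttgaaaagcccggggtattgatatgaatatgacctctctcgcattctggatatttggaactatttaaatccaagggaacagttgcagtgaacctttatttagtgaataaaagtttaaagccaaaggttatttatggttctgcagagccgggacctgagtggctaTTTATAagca

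In these windows Hoxa2 held 1 Hox–Pbx match, Hoxd4 held 1 TATA match and Hoxb4 held none of the 3 motifs. Windows of 22 of the 37 members were present, 24 in all. The κB consensus was found in 0 of 7 windows of tested members and in 1 of 17 windows of the others, that of Hoxa13, against 7.25% of all 32851 promoter windows. A Hox–Pbx motif was found in 1 of 7 and 3 of 17 windows, against 7.68% of all windows, and a TATA motif in 0 of 7 and 4 of 17, against 12.4%. The GC content had a median of 58% in the 7 windows of tested members and 59.2% in the 17 others, with 52.4% over all windows.

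Within the tested set, most Hoxa genes and 3 of 5 Hoxb genes, with Hoxb3 among them, differed in level between groups. Across the 5 groups, limma's F test passed an adjusted p of 0.05 for 7 of the 13 genes, where 29.7% of all tested probes passed. The 7 were Hoxa2, Hoxa4, Hoxa5, Hoxa7, Hoxb3, Hoxb4 and Hoxb7, and the 6 that missed were Hoxa3, Hoxa9, Hoxb2, Hoxb6, Hoxc4 and Hoxc5. Hoxb3 entered the tested set only through wild type 0 h, its highest group, so its pass is not independent of that filter. At the dimmer Hoxa3 probe the F test passed (adjusted p = 6.6e-05), while the probe used gave an adjusted p of 0.338. After a normexp background correction the F test passed for none of the 13 genes. Among the 4 treated groups fitted alone, 1 of the 13 passed, where 17.6% of all tested probes did. Hoxb2 was steady, at 1.53 to 1.95 on all 14 arrays (adjusted p = 0.387), and Hoxa9 ranged from -3.78 to -2.94 (adjusted p = 0.951). Hoxb6 lay between -2.80 and -1.82 (adjusted p = 0.518). Hoxa5 had a mean of -2.37 ± 0.25 (SD, n = 3) in wild type 0 h, -2.77 ± 0.11 (n = 3) in wild type 3 h, -2.70 ± 0.15 (n = 2) in K314/315R, and -3.18 ± 0.26 and -3.18 ± 0.30 (n = 3 each) in KTR and pTV, and it had no call in any pair of groups. Hoxb3 was dim, at -4.03, -3.78 and -4.02 in wild type 0 h and at -5.46 to -4.29 on the other arrays.

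Single comparisons were read with a ratio above 1.8 in either direction and an adjusted p below 0.05, in one limma fit of all arrays. The calls fell on 3 genes: Hoxa2, Hoxb4 and Hoxb7.

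Hoxb4, known for its role in blood progenitors, was highest in pTV among the treated groups. Its level was -2.42, -1.97 and -2.05 in pTV, -3.01, -2.73 and -2.69 in wild type 3 h, -3.48, -2.96 and -2.57 in KTR, -3.59 and -2.79 in K314/315R, and -1.75, -2.45 and -2.53 in wild type 0 h. All treated arrays with a p65 form lay below all pTV arrays. K314/315R was 2.06-fold lower than pTV (log2 fold change -1.04 ± 0.31, adjusted p = 0.0274), while KTR at -0.86 ± 0.28 (adjusted p = 0.0578) and wild type at -0.66 ± 0.28 (adjusted p = 0.149) did not pass. The K314/315R call rests on few arrays: the log2 fold change was -0.65 without K314/315R replicate 1 (adjusted p = 0.236), -0.96 without pTV replicate 2 (adjusted p = 0.0818) and -0.99 without pTV replicate 3 (adjusted p = 0.0661). The K314/315R call was also lost with slides entered as a random block (adjusted p = 0.101), with quantile normalization (adjusted p = 0.0545), with no filter on dim probes (adjusted p = 0.0634) and with normexp (adjusted p = 0.707). With the replicate number as a block, KTR against pTV passed as well, and the count of Hox genes called in that comparison rose from 1 to 2.

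Hoxb7 was the dimmest gene with a call. Its level was -4.29, -3.29 and -2.98 in pTV, -3.57 and -3.54 in K314/315R, -4.28, -3.66 and -3.70 in wild type 0 h and -4.98, -4.10 and -3.98 in wild type 3 h, where the first array was not above background. In KTR it was -6.83, -4.80 and -6.28, with no array above background. The KTR arrays lay below all pTV and K314/315R arrays. KTR gives no measured level of Hoxb7. With KTR set at the lowest signal that was well above background, Hoxb7 was 1.70-fold lower than in pTV and 1.66-fold lower than in K314/315R. That signal is no strict upper bound, since on KTR replicate 3 Hoxa2 at -3.96 and Hoxd3 at -3.59 were not above background. The calls rest on the values as read. Their log2 fold changes were -2.45 against pTV (adjusted p = 0.00412) and -2.42 against K314/315R (adjusted p = 0.027). The second of these calls was lost without KTR replicate 3 and without either K314/315R array. Against wild type 3 h, where 2 of 3 arrays measured it, KTR did not pass (adjusted p = 0.27). With slides entered as a random block, Hoxb7 was called in this comparison. Within the slides the difference was -1.85, -0.70 and -2.30, from KTR values that were not above background. The part played by the 212 and 326 outlier spots of KTR replicates 2 and 3 was not tested.

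**Figure D2:**
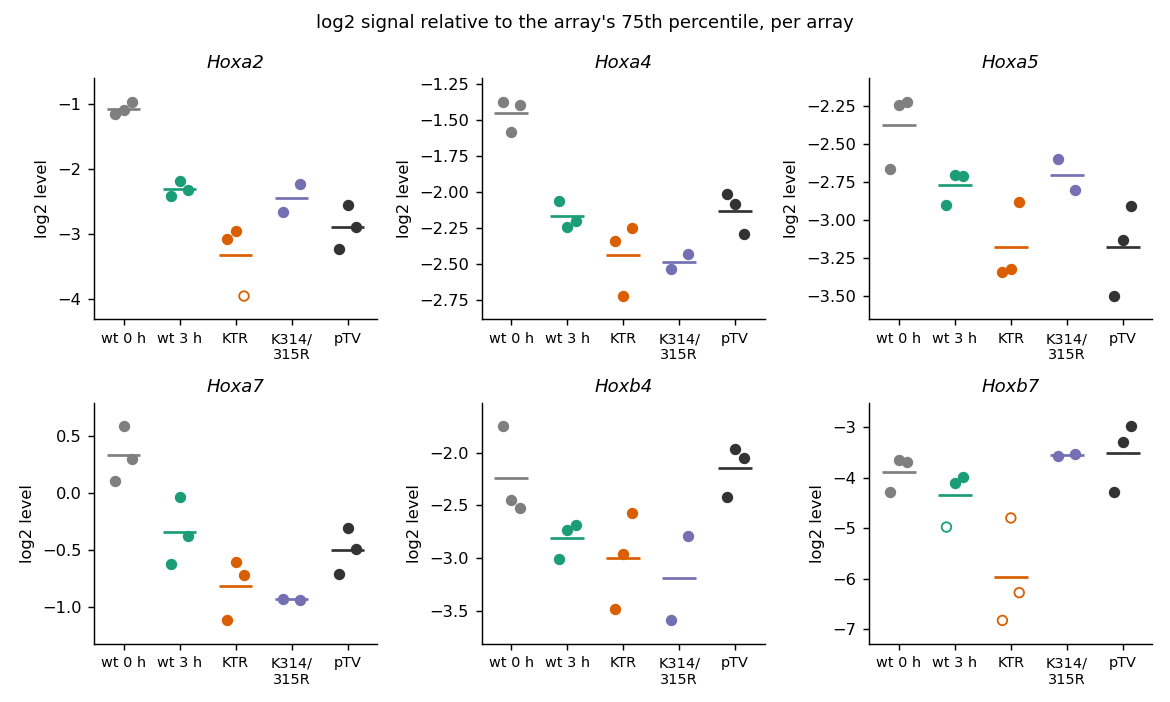
Level on each array (log2 signal relative to the array's 75th percentile) of 6 Hox genes in the 5 groups; points are arrays, open points were not well above background, and bars are group means. Hoxa2 was highest in wild type 0 h at -1.15 to -0.96, and Hoxb7 was above background on no KTR array.

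Counted over the 13 tested genes, the p65 forms differed from the empty vector at few Hox genes. Wild type 3 h against pTV gave 0 calls (limma; 3 genes with an unadjusted p below 0.05), where 6.28% of all tested probes were called. KTR against pTV gave 1 of 13, with a background of 6.02%, and K314/315R against pTV gave 1 of 13, with a background of 11.6%. The shares of 0%, 7.69% and 7.69% amount to a difference of at most 1 gene from the share over the array. The median log2 fold change over the 13 genes was 0.03, -0.05 and -0.31 in the 3 comparisons, where the median over all probes was -0.03, 0.02 and -0.01. The medians of the Hox genes moved with the processing. They were 0.17, -0.24 and -0.27 under normexp and -0.04, -0.34 and -0.35 from the deposited value table. The 3 comparisons share the pTV arrays. Fibroblast markers also differed between these pools. Against pTV, Pdgfra was 3.41-fold higher in wild type, 3.08-fold in KTR and 4.79-fold in K314/315R, and Pdgfrb 3.97-fold, 4.15-fold and 3.79-fold, while Thy1 was at 0.437, 0.35 and 0.478 times its pTV level (adjusted p at most 0.000493). Dcn was 2.17-fold higher in wild type and 2.42-fold in K314/315R, and Cldn3 was at 0.554 times its pTV level in KTR and 0.371 times in K314/315R, all past the same thresholds. The part of these markers in the Hox values was not tested.

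**Figure D3:**
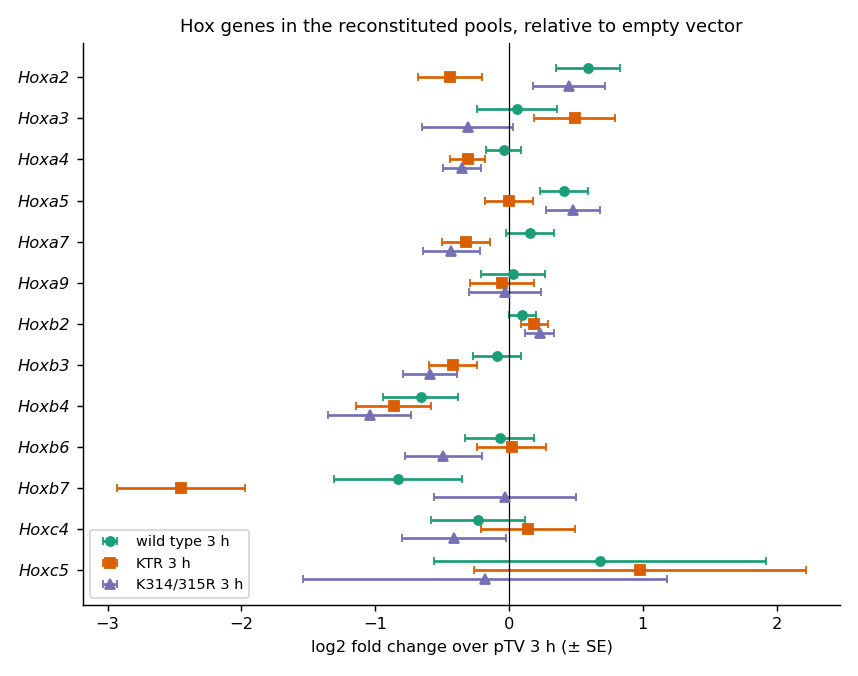
log2 fold change over pTV 3 h with its SE for the 13 tested Hox genes in wild type, KTR and K314/315R pools. Hoxb4 was below 0 in all 3 (-0.66, -0.86 and -1.04). Hoxb7 in KTR and Hoxb3 in KTR and K314/315R rest on values that were not above background.

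Between mutant and wild type p65 no Hox gene was called in the main fit, which leaves out the pairing of arrays by slide. KTR against wild type 3 h gave 0 of 13 calls (limma; 4 genes with an unadjusted p below 0.05), where 0.167% of all tested probes were called. K314/315R against wild type 3 h gave 0 of 13 (2 genes with an unadjusted p below 0.05), with a background of 1.21%. KTR against K314/315R, which differ at 1 lysine, gave 1 of 13, with a background of 2.55%, and this was Hoxb7. Hoxa2 was lower in KTR on every array without a call, at -3.08, -2.96 and -3.96 in KTR, where the last array was not above background, and -2.41, -2.19 and -2.32 in wild type 3 h. The log2 fold change was -1.03 ± 0.24 (adjusted p = 0.149), and Hoxa2 and Hoxb7 were both called in this comparison once slides entered as a random block.

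After 3 h of TNFα the wild type pool had lower levels of Hoxa2, which is known to set the identity of the second pharyngeal arch. Hoxa2 stood at -1.15, -1.09 and -0.96 without TNFα and at -2.41, -2.19 and -2.32 after it. The groups did not overlap, and within the 3 slides the difference was -1.27, -1.09 and -1.36. It was 2.36-fold lower (log2 fold change -1.24 ± 0.24, adjusted p = 0.0125), the only call among the 13 genes in a comparison where 1.55% of all tested probes were called. The call was lost without wild type 3 h replicate 1 or without wild type 0 h replicate 3, where the log2 fold change was -1.18 in both cases (adjusted p = 0.0519 and 0.057). In the other pools at 3 h Hoxa2 lay between -3.96 and -2.23, below every untreated array, but those pools have no untreated sample.

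For the other 5 tested Hoxa genes no call was made at the probe used. Hoxa4 was at -1.37, -1.58 and -1.39 without TNFα and at -2.06, -2.24 and -2.20 after it. Its log2 fold change of -0.72 ± 0.13 (adjusted p = 0.00745) passed the p but not the ratio threshold. Hoxa7 was at 0.11, 0.59 and 0.30 and then at -0.62, -0.03 and -0.38, a log2 fold change of -0.68 ± 0.18 (adjusted p = 0.06). Hoxa5 gave -0.40 (adjusted p = 0.282) and Hoxa9 -0.12 (adjusted p = 0.883). In the Hoxb cluster, Hoxb3 gave -0.62, Hoxb4 -0.56, Hoxb7 -0.47, Hoxb6 -0.12 and Hoxb2 0.00, again without a call. Hoxc4 gave 0.04 and Hoxc5 0.59, also without a call. For Hoxa3 the probes disagreed. The dimmer probe was called, from -2.35, -2.32 and -2.21 to -3.19, -3.28 and -3.03 (log2 fold change -0.87 ± 0.12, adjusted p = 0.00108), while the brighter probe gave -0.22 ± 0.30 (adjusted p = 0.801).

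Over all 13 genes, 10 were lower after TNFα with a median log2 fold change of -0.40, against -0.04 over all probes, but with a normexp background correction 4 of 13 were lower and the median was 0.29. Groups did not overlap for 6 of the 13 genes, where 30.4% of all tested probes showed no overlap. Hoxb3 is among the 10 lower genes and among these 6. It was tested only through wild type 0 h, its higher group in this comparison. Under normexp the log2 fold change was -0.50 ± 0.46 (SE) for Hoxa2, -0.16 ± 0.40 for Hoxa4 and -0.46 ± 0.20 for Hoxa7, but 0.43 for Hoxa3, 0.29 for Hoxa5, 0.64 for Hoxa9 and 0.65 for Hoxb3. No Hox gene was called in any of the 7 comparisons under normexp, and in this one the calls over the whole array fell from 344 to 23. The summed level of the pluripotent markers, which is nearly all Sox2, was 2.56 to 2.93 without TNFα and 1.44 to 1.77 after it, and its part in the Hox result was not tested.

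**Figure D4:**
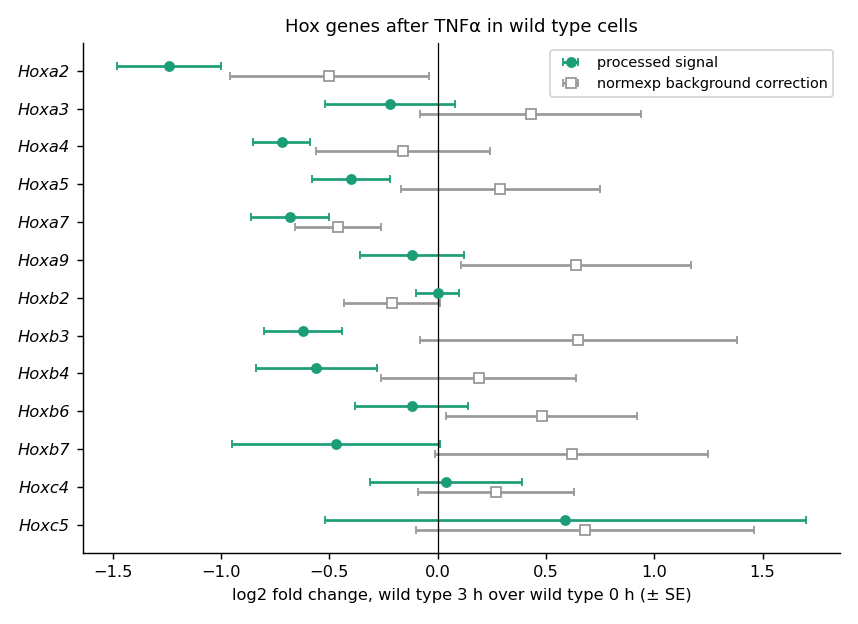
log2 fold change of the 13 tested Hox genes in wild type cells, 3 h of TNFα over none, with SE, from the processed signal (filled circles) and after normexp background correction (open squares). From the processed signal 10 of 13 lay below 0, with Hoxa2 at -1.24, whereas after normexp 4 of 13 did.

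The Hoxc genes varied widely within some groups. Hoxc5 was at -1.65, -3.29 and -3.48 in wild type 3 h, at -0.52, -3.76 and -3.26 in KTR, at -2.69, -3.54 and -3.96 in wild type 0 h, and at -1.41 and -5.93 in K314/315R. For pTV replicate 1 the spot was an outlier and the value was left out of the fit, and the other pTV arrays gave -2.86 and -4.11. The first replicate was thus the highest in each of these 4 groups. For Hoxc4 the highest array was pTV replicate 1 at -0.14, followed by KTR replicates 1 and 3 at -0.64 and -0.89, and the other arrays lay between -1.81 and -1.24. Neither gene passed the F test over groups (adjusted p = 0.692 for Hoxc4 and 0.883 for Hoxc5).

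**Figure D5:**
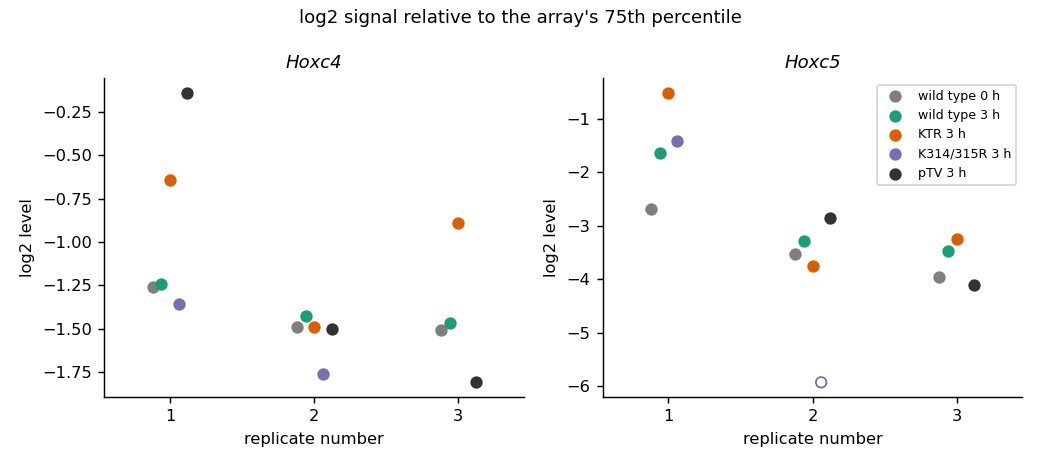
Level of Hoxc4 and Hoxc5 on each array by replicate number, with groups in colour and an open point for an array not above background; K314/315R replicates lie on another slide than the other replicates of their number. Replicate 1 was highest for Hoxc5 in the 4 groups with a value, from -2.69 to -0.52.

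Hox proteins bind DNA together with the TALE homeodomain cofactors, the Pbx, Meis and Pknox proteins. The list of 11 TALE genes also holds Tgif and Tgif2, which belong to none of these families. All 11 were measured on all 14 arrays, and none was called in any of the 7 comparisons (limma). Over all tested probes the shares called were 0.167% to 11.6%. Whether this list or those below differ from other genes was not tested. After TNFα 5 of the 11 had an unadjusted p below 0.05 and 2 an adjusted p below 0.05, both under the ratio threshold. Mrg1 was lower (log2 fold change -0.59, adjusted p = 0.00814) and Tgif was higher (0.80, adjusted p = 0.0115). In the other 6 comparisons 0 to 2 had an unadjusted p below 0.05. The median log2 fold change of the list lay between -0.09 and 0.06 in the 7 comparisons.

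Polycomb group proteins keep unused Hox genes silent, and trithorax group proteins keep used ones active. Of the Polycomb list, 21 of 22 genes were tested. Cbx7, a chromodomain subunit, was higher than in pTV by 2.14-fold in wild type (adjusted p = 7.16e-06) and by 2.05-fold in KTR (adjusted p = 1.53e-05), and in K314/315R by 1.74-fold, under the ratio threshold (adjusted p = 0.000252). No other Polycomb gene was called in any comparison. Of 12 tested genes of the trithorax and H3K27 demethylase list, Chd7, a chromatin remodeller, was lower than in pTV by 3.26-fold in wild type (adjusted p = 4.85e-06), 2.21-fold in KTR (adjusted p = 0.000152) and 2.3-fold in K314/315R (adjusted p = 0.000214). It was the only call of that list.

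Upstream regulators of Hox genes, such as retinoic acid receptors, were tested for 6 of 14 genes. Egr2, which activates Hoxa2 in the hindbrain, rose 3.35-fold with TNFα (adjusted p = 0.00167), and Gdf11 was 1.91-fold lower in KTR than in K314/315R (adjusted p = 0.0283). Among genes that flank the clusters, 18 of 22 were tested. Snx10, beyond the Hoxa cluster, exceeded its pTV level 2-fold in wild type (adjusted p = 7.62e-05) and 1.81-fold in K314/315R (adjusted p = 0.000515). Evx2, next to Hoxd13, was 2.06-fold lower in K314/315R than in pTV (adjusted p = 0.0252) and 3.45-fold higher in KTR than in K314/315R (adjusted p = 0.0104). Evx2 had a mean of -4.68 in K314/315R (n = 2), and Gdf11 a mean of -4.07 in KTR. Each was above background on 13 arrays, so the folds of Evx2 and Gdf11 may be bounds only.

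Other transcription factors that record body region were also listed. Of the 44 on the array 25 were tested, with 5 called in wild type against pTV, 3 in KTR against pTV and 6 in K314/315R against pTV. Over all tested probes the shares called in these comparisons were 6.28%, 6.02% and 11.6%, and whether the list differs from other genes was not tested. Prrx2, a limb and face mesenchyme factor, was higher than in pTV by 2.27-fold in wild type, 2.41-fold in KTR and 3.17-fold in K314/315R (adjusted p = 0.000672, 0.000446 and 0.000117). Foxc2 was lower than in pTV by 2.39-fold, 2-fold and 2.05-fold (adjusted p = 0.000215, 0.00139 and 0.00171). Foxc1 was 1.95-fold higher in wild type (adjusted p = 3.89e-05) and 2.32-fold higher in K314/315R (adjusted p = 1.94e-05). Emx2 was higher than in pTV by 1.82-fold in wild type, 2.2-fold in KTR and 1.84-fold in K314/315R (adjusted p = 0.00306, 0.000459 and 0.00409). With TNFα, 1 member of this list was called, Foxd1, 2.14-fold lower (adjusted p = 0.000254). It is not among the 4 genes of the list with the highest folds and was chosen after its values were seen.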

How the data were processed

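RNA of 14 MEF cultures was labelled with Cy3 and hybridised to Agilent whole mouse genome arrays. The authors deposited scanner files in which Agilent Feature Extraction 9.1.1.1 or 9.1.3.1 had subtracted background and written a processed intensity per spot, and a value table with the same intensity times one factor per array, used as an alternative. Spots flagged as outliers were removed, spots of a probe were averaged, and log2 intensity minus the array's 75th percentile was fitted in one model of 5 groups (limma 3.58.1, R 4.3.3), with Benjamini-Hochberg adjustment over the 22179 probes for which at least 1 group had no array at background. The script was tested on simulated data. The labels name biological replicates with RNA from different days. Replicate number equals slide for 4 groups, and same-numbered arrays deviated together there (r = 0.308 to 0.613 over 18 pairs), so the number pairs them. The main fit did not use this pairing, which entered only in the alternatives with blocks. The number of arrays limits the precision. Hox genes that are not named are not reported here. The Hox genes are named, those called in a comparison with all arrays, and from 6 other lists the called genes with the largest folds, at most 4 a list. Members and lists were chosen with earlier results of these data known. Alternatives were normexp correction with an offset of 50, quantile normalization, other filters, the deposited table, blocks, fewer groups and leaving out each array. Promoter windows came from RefSeq.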

Additional observations from a re-analysis of the deposited data

How the results depend on the processing

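Alternatives were run for 7 counts of called Hox genes, the F test and the sets measured per group, and 162 of these values stayed within 1.5 times the reported count while 40 did not. For single genes, 266 values kept direction and side of the threshold, 34 lost the threshold, 23 gained it and 2 reversed. Under normexp the counts were 0 for KTR over pTV, K314/315R over pTV, KTR over K314/315R, the TNFα comparison and the F test, and the TNFα log2 fold change became 0.65 for Hoxb3 and 0.07 for the second Hoxa3 probe. Quantile normalization gave 2 for KTR over pTV and 0 for K314/315R over pTV. Without a filter on dim probes the counts were 1 for wild type over pTV, 6 for KTR over wild type, 2 for KTR over pTV and 3 for KTR over K314/315R, with Hoxb1 and Hoxd4 among the added genes, and the 1 call of K314/315R over pTV was then Hoxb1 in place of Hoxb4. With only probes above background on all 14 arrays, which removes Hoxa2 and Hoxb7 by construction, they were 0 for KTR over pTV, KTR over K314/315R and TNFα, and 4 for the F test. The deposited value table gave 2 for KTR over pTV, and any tested probe gave 2 for TNFα. Unadjusted p gave 2 each for KTR over wild type, over pTV and over K314/315R. Fitting only the groups compared gave 0 for KTR over K314/315R, and only the 4 treated groups 1 for the F test. The replicate block gave 2 for KTR over pTV and moved no other count beyond 1.5 times, and the slide as a random block gave 2 for KTR over wild type, 2 for KTR over pTV and 0 for K314/315R over pTV. Leaving out each array gave 1 to 2 for KTR over pTV (2 without KTR replicate 3, either K314/315R array or wild type 0 h replicate 1, Hoxb4 being added), 0 to 2 for K314/315R over pTV (2 without K314/315R replicate 2, Hoxb3 being added, and 0 without K314/315R replicate 1 or pTV replicate 2 or 3), 0 to 2 for KTR over K314/315R (2 without KTR replicate 1, Hoxa3 being added, and 0 without KTR replicate 3 or either K314/315R array) and 0 to 1 for TNFα. Apart from the constructions named, the cause was not tested. Genes near background give only bounds, which limits Hoxb3, Hoxb7 and the genes not tested.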

Other observations

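Probes of 3 Hoxd genes were above background on KTR arrays, those of Hoxd4 (replicates 1 and 2), Hoxd11 (replicate 1) and the second probe of Hoxd13 (replicate 1). Between 102 and 467 probes per array were above background on that array alone, 196 of them on KTR replicate 1.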
